A study of Mus musculus with 6 samples.

Results

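The extracellular matrix genes described here are the collagen genes, taken by their symbols, together with 18 named genes of small leucine-rich proteoglycans, matrix glycoproteins, elastic fibres and fibroblast surface receptors. They came to 62 of the 25701 genes in the count table, of which 44 were collagen genes. The expression filter kept 51 of the 62 for testing. Bulk RNA-seq had been performed on CD11b+ cells, which are mainly monocytes, macrophages and neutrophils, purified with magnetic beads from subcutaneous flank tumors, with 3 mice in the MCT2 CO and 3 in the MCT2 KO group. All tumors had been grown for 24 days from 100000 TC1 cells, a mouse lung tumor line that kept its own MCT2 gene. MCT2 KO mice were MCT2loxP/loxP; Cre+ animals on a C57BL/6 background that had received tamoxifen at 8 weeks of age, 5 daily doses of 0.18 mg per g body weight, and MCT2 CO mice had received vehicle. The deletion was systemic rather than restricted to macrophages, and tamoxifen itself cannot be told apart from the deletion, since no group received the drug without it. In the sample records the tissue is lung and the cells are purified macrophages, but the methods describe flank tumors and were followed here. MCT2 CO mice were MCT2 transgenic as well, and the paper describes the genetic background of its mice as identical. The age of 8 weeks applied to both groups. The study used young male mice only.

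Collagens are built from 3 chains wound into a helix. Fibrillar collagens I, III and V form the cable-like fibres of connective tissue, collagen IV forms the sheet under endothelium and epithelium, and collagen VI forms beaded filaments around cells. Decorin, lumican and biglycan bind the fibrils, while fibronectin, tenascin-C and the thrombospondins are adhesive glycoproteins of wounds and tumors. In tumors the main known source of fibrillar collagen is the fibroblast, whereas macrophages are better known for taking collagen up, so these mRNAs in a CD11b+ preparation can come from cells carried along as well as from the myeloid cells themselves. The cells carried along may include the implanted TC1 cells, whose part was not tested. The paper states that telling these from host stromal cells would need further analyses. In such bulk samples, fewer cells of a type and less RNA per cell cannot be told apart.

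Several of these genes lie side by side in the genome, and 9 pairs of members, covering 17 genes, were separated by less than 100 kb (GENCODE M21 on GRCm38, which also gives the positions below). *Col3a1* (chromosome 1, 45311538 to 45349706, plus strand) and *Col5a2* (45374321 to 45503282, minus strand) faced each other across 24.6 kb, and *Dcn* (chromosome 10, 97479609 to 97518143) lay 47 kb from *Lum* (97565128 to 97572703), both on the plus strand. *Col4a1* (chromosome 8, 11198423 to 11312826, minus strand) and *Col4a2* (11312805 to 11449287, plus strand) are transcribed away from each other, and their first exons overlapped by 22 bases. That overlap is shown first because the levels of the pair are compared further on, and the 250 bases before the start sites of *Col3a1*, the collagen with the highest level per kb of mRNA, and *Bgn*, the most abundant proteoglycan, are shown as examples of the different base composition of member promoters. Sequences are the plus strand from RefSeq on GRCm38.p6, written 5′ to 3′, in which capitals mark matches to TATAAA or GGGCGG, on either strand.
Col4a1/Col4a2 overlap, chr8:11312805-11312826: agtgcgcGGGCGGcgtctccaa
Col3a1, chr1:45311288-45311537: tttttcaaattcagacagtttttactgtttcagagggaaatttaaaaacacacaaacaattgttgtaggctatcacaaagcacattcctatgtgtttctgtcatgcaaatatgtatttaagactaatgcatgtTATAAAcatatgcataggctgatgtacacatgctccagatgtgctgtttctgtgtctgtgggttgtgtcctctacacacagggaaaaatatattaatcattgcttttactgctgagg
Bgn, chrX:73483351-73483600: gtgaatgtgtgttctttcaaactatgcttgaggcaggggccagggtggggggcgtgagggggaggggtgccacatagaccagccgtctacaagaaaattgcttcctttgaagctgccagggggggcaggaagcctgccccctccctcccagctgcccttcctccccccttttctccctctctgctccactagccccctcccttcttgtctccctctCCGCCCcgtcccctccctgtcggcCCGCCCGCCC
The shared first-exon bases held 1 GGGCGG, the *Col3a1* stretch held 1 TATAAA and no GGGCGG, and the *Bgn* stretch held 3 GGGCGG on the opposite strand, the last pair of which overlap. RefSeq windows of 250 bases before to 50 bases after the start were found for 44 members, in 50 windows. GGGCGG was present in 58% of the 50 and in 35.9% of all 32544 windows, CCAAT in 30% and 37.4%, and TATAAA in 18% and 13.6%.

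Total counts ranged from 24863611 to 31713704 per sample, which leaves little counting error except where a gene has few counts. For *Slc16a7*, which encodes MCT2, the MCT2 CO replicates gave 481, 287 and 298 counts and the MCT2 KO replicates 196, 162 and 133, a log2 fold change of -1.05 (standard error, SE, 0.24) with an adjusted p of 0.370 by edgeR's quasi-likelihood test. A pair of libraries stood apart from the rest in a principal component analysis: MCT2 CO replicate 3 lay at -18.8 on the first component, with the other 5 between -1.75 and 10.3, and MCT2 KO replicate 2 at -19.2 on the second. Where leaving out 1 of them moved a printed log2 fold change of a matrix gene by over 1.5 times, the value without it is given beside it. CD11b itself (*Itgam*) cannot be used to check the purification, since it had 1 count over the 6 samples together and its exons lie almost wholly inside the span of another gene, but other macrophage genes such as *Csf1r* (843 to 1408 CPM, TMM-normalized counts scaled to the library size), *C1qa* (949 to 1863 CPM) and *Lyz2* (886 to 1972 CPM) were abundant in every sample.

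Of all counts, the matrix genes made up 1.26%, 1.35% and 1.74% in the MCT2 CO replicates, in the order 1 to 3, and 1.13%, 1.37% and 1.33% in those of MCT2 KO. The groups overlapped, and MCT2 CO replicate 3 held the highest share. The most abundant member was *Tnc*, encoding tenascin-C, with a mean of 1799 ± 135 CPM (SD, n = 3) in MCT2 CO and 2251 ± 744 CPM (SD, n = 3) in MCT2 KO. It was followed by *Fn1*, *Thbs2*, *Col3a1*, *Col4a1*, *Thbs1*, *Col6a3*, *Col4a2*, *Col5a1*, *Col1a2*, *Col6a1* and *Pdgfra*. At the other end, *Col10a1*, the collagen of growth plate cartilage, was listed at 0 in all 6 samples. All of its exons lie inside the span of *Nt5dc1*, so its reads may have been lost in the counting, which was not tested. The other 10 members below the filter, namely *Col4a3*, *Col6a5*, *Col6a6*, *Col9a1*, *Col9a2*, *Col13a1*, *Col19a1*, *Col22a1*, *Col24a1* and *Col26a1*, stayed under 1 CPM in every sample.

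**Figure D1:**
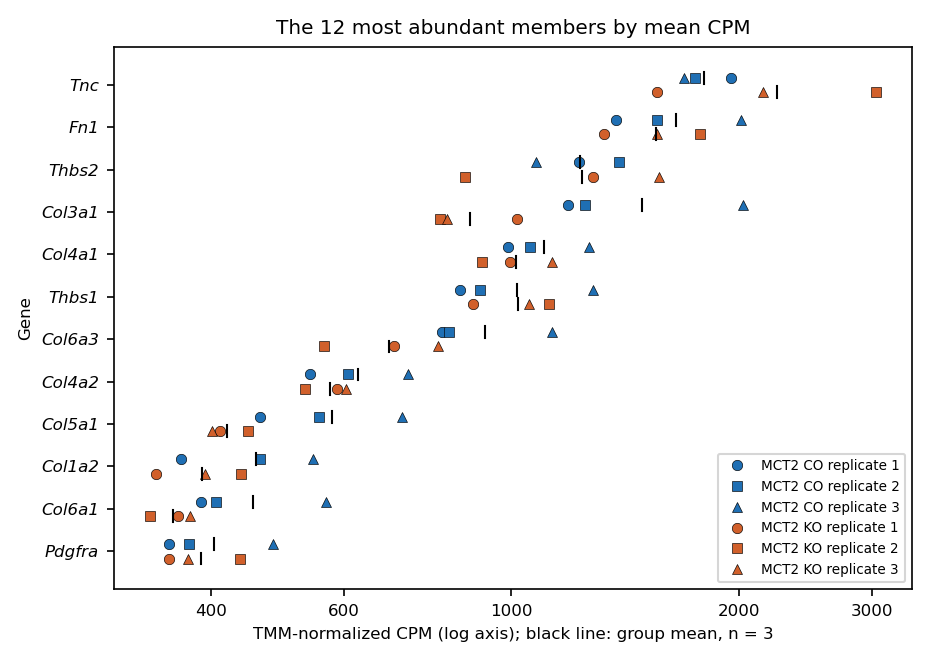
TMM-normalized CPM (log axis) of the 12 most abundant members in each of the 6 samples, with black lines for the group means (n = 3). The MCT2 KO points of *Col3a1*, *Col6a3*, *Col5a1* and *Col6a1* all lie to the left of the MCT2 CO points, whereas those of the other 8 genes overlap them.

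Across the whole set, no member was called different between MCT2 KO and MCT2 CO by edgeR's quasi-likelihood test, where a call needed an adjusted p up to 0.05 with a log2 fold change of 0.58 or more in either direction. The same holds for the 13485 genes tested, of which 0.0% were called, 0.0% lower and 0.0% higher. At an unadjusted p under 0.05, 14 of the 51 members were lower in MCT2 KO, where the background over all genes was 5.6%, and 0 were higher, where it was 3.77%. The log2 fold change was below 0 for 36 of the 51 members, against 49.9% of all genes tested, and its median was -0.25, against 0.00 for all genes. All 3 MCT2 KO samples were below all 3 MCT2 CO samples for 14 members (background 8.77%) and above them for 1 member, *Col17a1* (background 7.07%). With every gene that had a count, DESeq2 called 3 of 61 members, all lower in MCT2 KO: *Lum*, *Col3a1* and *Dcn* (background 0.448% called, 0.27% called lower and 0.178% higher). On the genes kept by the filter it called *Lum* and *Col3a1* (background 0.586%). The 3 calls with every gene included were all lost when MCT2 CO replicate 3, MCT2 KO replicate 2 or MCT2 KO replicate 3 was left out.

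**Figure D2:**
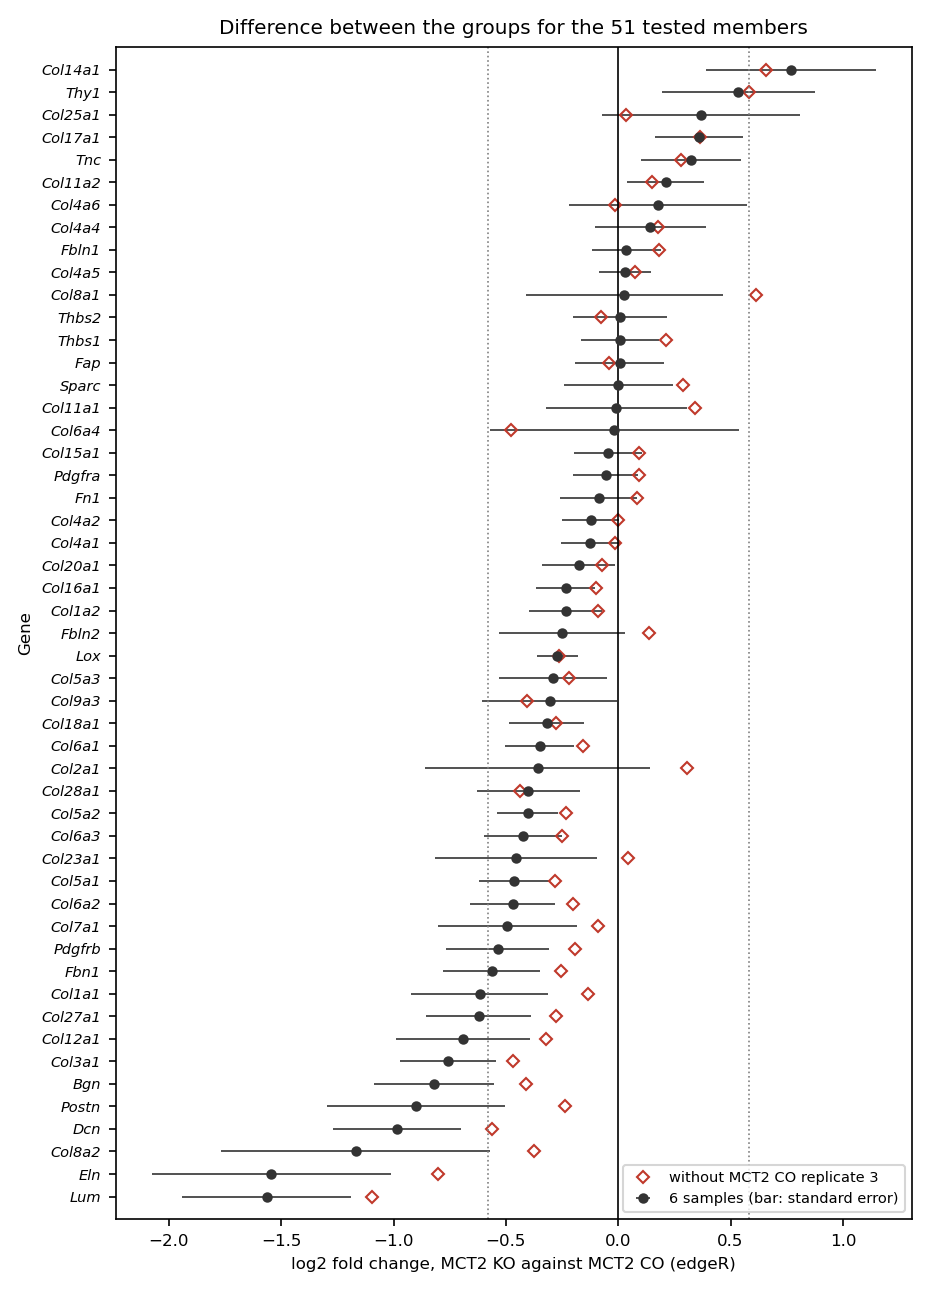
Log2 fold change of MCT2 KO against MCT2 CO (edgeR) for each of the 51 tested members, with bars for the standard error, and open diamonds for the value without MCT2 CO replicate 3. Dotted lines mark 0.58 in either direction. Of the filled points, 36 lie below 0, from -1.56 for *Lum* upward, and leaving out that replicate moves most of the lowest points toward 0.

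Much of this difference lay in MCT2 CO replicate 3. It was the highest of the 6 samples for 36 of the 51 members, or 70.6%, against 24.9% of all genes, and within MCT2 CO its log2 level exceeded the mean of the other 2 samples by a median of 0.46 over the members (0.00 over all genes). Without that replicate, 31 of 51 members were below 0 (background 49.4%), the median was -0.09, and 7 members were lower at an unadjusted p under 0.05 (background 3.33%). MCT2 KO replicate 2, the other library that stood apart, did not differ from the other MCT2 KO samples in one direction, with a median of -0.02. Without it 40 of 52 members were below 0 (background 50.4%), with 10 lower (background 5.31%) and 1 higher (background 6.24%) at an unadjusted p under 0.05. Without both libraries, 30 of 50 members were below 0 (background 49.6%) and 9 were lower (background 4.19%). All MCT2 KO samples were below both of the other MCT2 CO samples for 14 members (background 11.6%). This count includes every gene without overlap over all 6 samples by definition. It could therefore not fall below the 14 members given above, and says nothing of what remains without MCT2 CO replicate 3.

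**Figure D3:**
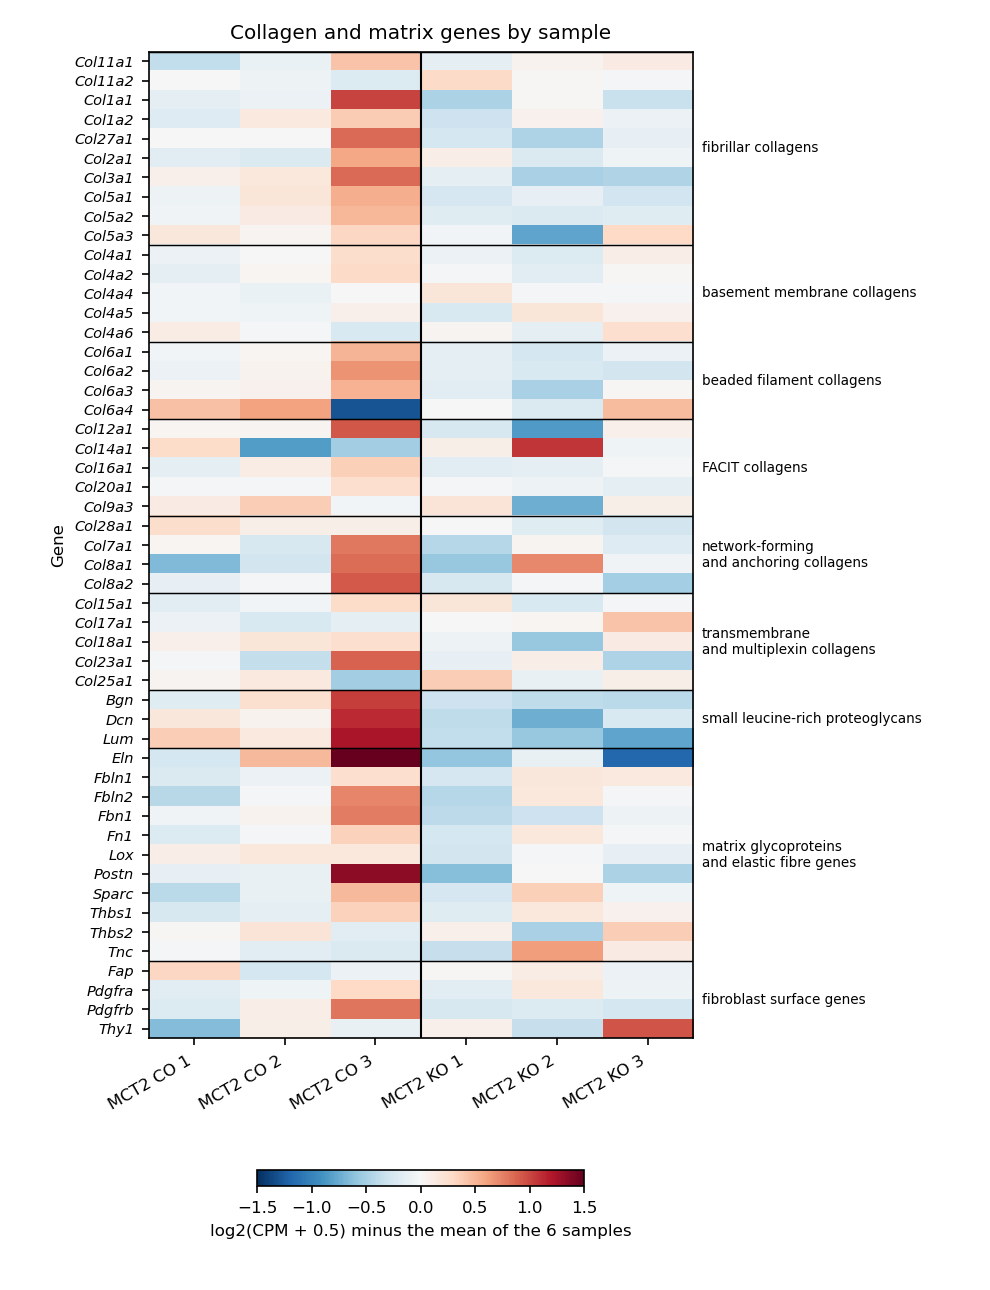
Log2(CPM + 0.5) of the 51 tested members in each sample, as the difference from the mean of the 6 samples (color, from -1.5 in blue to 1.5 in red), grouped by role. The column of MCT2 CO replicate 3 is red for most fibrillar, beaded filament and proteoglycan genes, and *Tnc*, *Thbs2*, *Lox* and *Col6a4* are among the genes without that pattern.

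The 3 small leucine-rich proteoglycans, which coat collagen fibrils, had the lowest median log2 fold change of any group of members, at -0.98, and -0.56 without MCT2 CO replicate 3. In all 3 genes the groups did not overlap, with MCT2 KO below MCT2 CO (background 8.77%). *Lum*, encoding lumican, had 2.5, 2.08 and 4.97 CPM in MCT2 CO replicates 1 to 3 and 1.30, 1.07 and 0.84 CPM in MCT2 KO replicates 1 to 3. Its log2 fold change was -1.56 (SE 0.37, edgeR adjusted p 0.380), and -1.09 without MCT2 CO replicate 3. DESeq2 called it at an adjusted p of 0.0247, a call also lost without MCT2 CO replicate 1. The levels of *Lum* are low for a gene that matrix-forming fibroblasts express strongly. *Dcn*, encoding decorin, had 27.9, 25.8 and 54.1 CPM in MCT2 CO and 18.9, 14.7 and 21.1 CPM in MCT2 KO. Its log2 fold change was -0.98 (SE 0.29, edgeR adjusted p 0.426), or -0.56 without MCT2 CO replicate 3. The DESeq2 adjusted p of *Dcn* was 0.0451, and this call was also lost without MCT2 KO replicate 1. *Bgn*, encoding biglycan (chromosome X, 73483602 to 73495933, plus strand), was several times more abundant, with 146, 196 and 339.4 CPM in MCT2 CO and 134, 127 and 125 CPM in MCT2 KO. The 3 MCT2 KO samples of *Bgn* lay close together, and its log2 fold change of -0.82 (SE 0.27, edgeR adjusted p 0.442) became -0.41 without MCT2 CO replicate 3.

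Among fibrillar collagens, 9 of the 10 tested genes had a log2 fold change below 0, and the summed level was 2443, 2717 and 3946 CPM in MCT2 CO replicates 1 to 3 and 2138, 2040 and 2025 CPM in MCT2 KO replicates 1 to 3. The mean sum of MCT2 KO was 0.681 of that of MCT2 CO, and every MCT2 KO sum was below every MCT2 CO sum. On the log2 scale the ratio of the means was -0.55, and -0.32 without MCT2 CO replicate 3. *Col3a1*, the single chain of collagen III, which is laid down early in granulation tissue, contributed most, with 1187, 1252 and 2028 CPM in MCT2 CO and 1017, 804 and 821 CPM in MCT2 KO. Its log2 fold change was -0.76 (SE 0.21, edgeR adjusted p 0.426), or -0.47 without MCT2 CO replicate 3, and the DESeq2 adjusted p was 0.0403. It also lost the DESeq2 call without MCT2 CO replicate 2.

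Collagen V nucleates fibrils, and its *Col5a1* chain (chromosome 2, 27886425 to 28039514, plus strand) had 464, 557 and 717 CPM in MCT2 CO and 411, 449 and 401 CPM in MCT2 KO, a log2 fold change of -0.46 (SE 0.16, edgeR adjusted p 0.450) and of -0.28 without MCT2 CO replicate 3. *Col5a2* had 186, 210.2 and 272 CPM in MCT2 CO and 169, 166 and 170.2 CPM in MCT2 KO, a log2 fold change of -0.40 (SE 0.14, edgeR adjusted p 0.453) and of -0.23 without that replicate. Neither chain overlapped between the groups. *Col27a1*, a fibrillar collagen best known from cartilage (chromosome 4, 63214004 to 63334991, plus strand), had 39.0, 38.9 and 70.4 CPM in MCT2 CO and 32.5, 28.2 and 35.8 CPM in MCT2 KO, a log2 fold change of -0.62 (SE 0.23, edgeR adjusted p 0.491). Its groups did not overlap either, and the value without MCT2 CO replicate 3 was -0.28.

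The chains of collagen I, the main collagen of skin, bone and scar, behaved less uniformly. *Col1a2* (chromosome 6, 4504814 to 4541544, plus strand) had 366, 464 and 547 CPM in MCT2 CO and 338, 438.5 and 393 CPM in MCT2 KO, with overlapping groups and a log2 fold change of -0.23 (SE 0.16, edgeR adjusted p 0.676), or -0.09 without MCT2 CO replicate 3. *Col1a1* (chromosome 11, 94936224 to 94953042, plus strand) had 79.8, 82.9 and 178 CPM in MCT2 CO and 63.1, 88.9 and 69.9 CPM in MCT2 KO. Its highest value, in MCT2 CO replicate 3, set most of the difference: the log2 fold change of -0.62 (SE 0.30, edgeR adjusted p 0.571) became -0.14 without that sample. The cartilage collagens *Col2a1*, *Col11a1* and *Col11a2* stayed between 0.31 and 5.70 CPM and overlapped between the groups, and so did *Col5a3*.

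Levels per length set the chains of the same molecule side by side, as CPM per kb of the principal mRNA. In collagen I, a molecule that usually holds a pair of alpha 1 chains and a single alpha 2 chain, *Col1a2* stood above *Col1a1* in every sample, by 5.08, 6.21 and 3.41 times in MCT2 CO replicates 1 to 3 and by 5.94, 5.47 and 6.24 times in MCT2 KO replicates 1 to 3. The order of these mRNAs was thus the opposite of the chain proportions of the protein, and the ratio was lowest in MCT2 CO replicate 3. In collagen IV, *Col4a2* stood at 0.547 to 0.606 of *Col4a1* in all 6 samples, the narrowest range of the ratios computed. *Col5a2* stood at 0.468 to 0.538 of *Col5a1* and *Col6a2* at 0.402 to 0.517 of *Col6a1*. Wider ranges were seen for *Col5a3*, at 0.181 to 0.433 of *Col5a1*, and for *Col6a3*, at 0.773 to 0.971 of *Col6a1*. Because the gene lengths in the table are whole gene spans, intronic reads may be among the counts, and their part in these ratios was not tested.

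**Figure D4:**
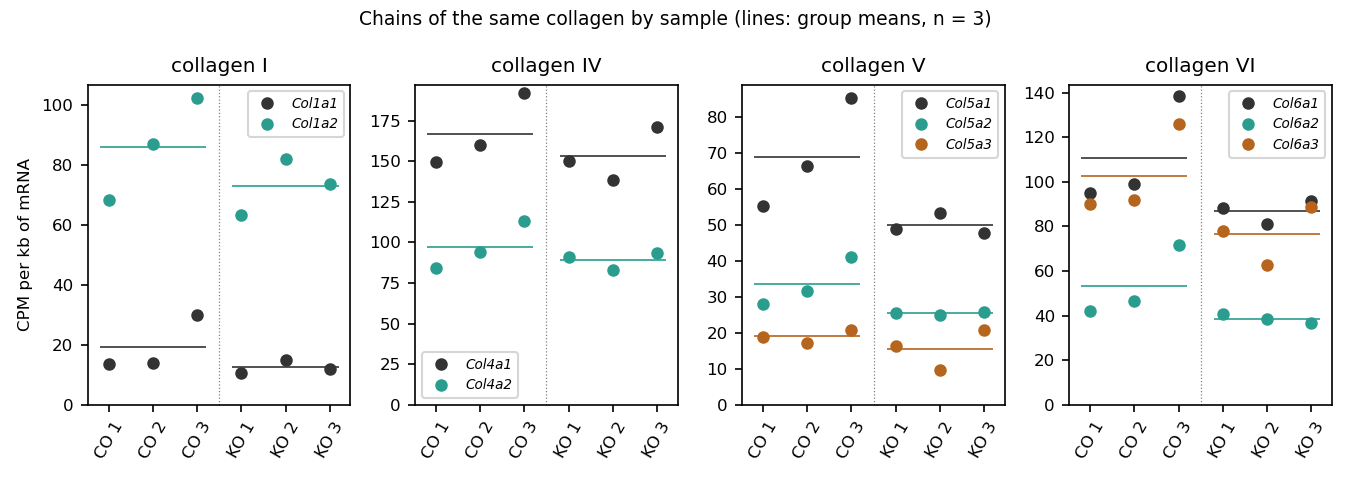
CPM per kb of mRNA for the chains of collagens I, IV, V and VI in each sample, with lines for the group means (n = 3), and each panel starts at 0. *Col1a2* lies above *Col1a1* in every sample, by 3.41 to 6.24 times, and *Col4a2* keeps 0.547 to 0.606 of *Col4a1*.

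Collagen VI is made by fibroblasts and anchors cells to the surrounding matrix, and its main chains were among the abundant members. *Col6a3* (chromosome 1, 90765923 to 90843971, minus strand) had 810.3, 826 and 1132 CPM in MCT2 CO and 700.3, 564 and 800.4 CPM in MCT2 KO, a log2 fold change of -0.42 (SE 0.17, edgeR adjusted p 0.525). *Col6a1* (chromosome 10, 76708792 to 76726168, minus strand) had 389, 407 and 568 CPM in MCT2 CO and 362, 332.5 and 375.5 CPM in MCT2 KO, a log2 fold change of -0.35 (SE 0.15, edgeR adjusted p 0.533). Together with *Col6a2*, at -0.47 (SE 0.19, edgeR adjusted p 0.509), all 3 main chains had groups that did not overlap (background 8.77%). Without MCT2 CO replicate 3 the log2 fold changes were -0.25 for *Col6a3*, -0.16 for *Col6a1* and -0.20 for *Col6a2*. *Col6a4* did not follow them, with 0.56 CPM in MCT2 CO replicate 3 and 1.75 to 3.46 CPM in the other 5 samples.

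The basement membrane collagens showed no such pattern. *Col4a1* had 990.3, 1057 and 1269 CPM in MCT2 CO and 995, 916 and 1133 CPM in MCT2 KO, with a log2 fold change of -0.12 (SE 0.13, edgeR adjusted p 0.797). Its partner *Col4a2* had 542, 608 and 729 CPM in MCT2 CO and 588, 533 and 604 CPM in MCT2 KO, with the same log2 fold change of -0.12 (SE 0.13, edgeR adjusted p 0.786). The groups overlapped in both genes and the values without MCT2 CO replicate 3 were -0.01 and 0.00, and those without MCT2 KO replicate 2 were -0.05 and -0.07. *Col4a5*, which belongs to the kidney and epithelial forms of collagen IV, had 64.7 to 86.1 CPM over the 6 samples and a log2 fold change of 0.03 (SE 0.11), which was 0.08 without MCT2 CO replicate 3 and -0.06 without MCT2 KO replicate 2, while *Col4a4* and *Col4a6* were at about 1 CPM or less.

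Most of the remaining collagens were low or overlapped between the groups. *Col12a1*, which decorates fibrils, had 214, 214 and 399.6 CPM in MCT2 CO and 177, 116 and 220.3 CPM in MCT2 KO, so that only MCT2 KO replicate 3 lay among the MCT2 CO values, and its log2 fold change was -0.69 (SE 0.30, edgeR adjusted p 0.533), or -0.32 without MCT2 CO replicate 3. *Col16a1* (215 to 310.3 CPM) and *Col18a1* (154.5 to 274 CPM), the source of endostatin, had log2 fold changes of -0.23 and -0.32 with overlapping groups. The first was -0.10 without MCT2 CO replicate 3 and the second -0.14 without MCT2 KO replicate 2. Since 33.5% of the exon bases of *Col18a1* lie inside another gene's span, its counts are uncertain. *Col14a1* had the highest log2 fold change of any member, 0.77 (SE 0.38, edgeR adjusted p 0.570), which rested on 32.3 CPM in MCT2 KO replicate 2 beside 8.19 to 18.3 CPM in the other 5 samples and was 0.30 without that replicate. *Col17a1*, a transmembrane collagen of epithelial hemidesmosomes, had 3.47, 3.08 and 3.31 CPM in MCT2 CO and 3.69, 3.81 and 5.18 CPM in MCT2 KO, with a log2 fold change of 0.36 (SE 0.19, edgeR adjusted p 0.598).

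The 11 matrix glycoprotein and elastic fibre genes were divided, with 5 log2 fold changes above 0 and 6 below. *Tnc*, whose product is laid down in wounds and tumor stroma (chromosome 4, 63959785 to 64047015, minus strand), had 1952, 1751 and 1695 CPM in MCT2 CO and 1559, 3037 and 2157 CPM in MCT2 KO. MCT2 KO held both its lowest and its highest sample, and the log2 fold change was 0.32 (SE 0.22, edgeR adjusted p 0.676), or 0.05 without MCT2 KO replicate 2. *Fn1*, encoding fibronectin (chromosome 1, 71585520 to 71653200, minus strand), which macrophages are also known to make, had 1376, 1560 and 2015 CPM in MCT2 CO and 1325, 1775 and 1561 CPM in MCT2 KO, a log2 fold change of -0.09 (SE 0.17, edgeR adjusted p 0.897). Without MCT2 CO replicate 3 it was 0.08, and without MCT2 KO replicate 2 it was -0.19.

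*Thbs1*, encoding thrombospondin-1, an inhibitor of angiogenesis that can activate latent TGF-beta (chromosome 2, 118111876 to 118127133, plus strand), had 856, 908 and 1283 CPM in MCT2 CO and 888, 1121 and 1055 CPM in MCT2 KO. *Thbs2* (chromosome 17, 14665500 to 14694235, minus strand) had 1228, 1388 and 1079 CPM in MCT2 CO and 1282, 868 and 1568 CPM in MCT2 KO. The log2 fold change of both was 0.01 (SE 0.17 and 0.21, edgeR adjusted p 0.991 and 0.992), and its sign changed with the normalization. Without MCT2 CO replicate 3 it was 0.21 for *Thbs1* and -0.08 for *Thbs2*, and without MCT2 KO replicate 2 it was -0.06 and 0.21. *Sparc*, a collagen-binding glycoprotein, had 267 to 497 CPM and a log2 fold change of 0.00 (SE 0.24), which became 0.29 without MCT2 CO replicate 3 and -0.19 without MCT2 KO replicate 2, and *Fbln1* and *Fbln2* also overlapped between the groups.

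Among elastic fibre and crosslinking genes, *Lox* (chromosome 18, 52516067 to 52529867, minus strand), the lysyl oxidase that crosslinks collagen and elastin, was a case in which MCT2 CO replicate 3 played no part. It had 48.6, 50.8 and 50.7 CPM in MCT2 CO and 37.5, 45.1 and 41.7 CPM in MCT2 KO. The groups did not overlap, and the log2 fold change was -0.27 (SE 0.09, edgeR adjusted p 0.444) and -0.26 without that sample. *Eln*, encoding elastin (chromosome 5, 134702593 to 134747323, minus strand), had 3.24, 5.77 and 13.6 CPM in MCT2 CO and 2.52, 3.65 and 1.49 CPM in MCT2 KO. The spread within MCT2 CO was wide and the groups overlapped, with a log2 fold change of -1.54 (SE 0.53, edgeR adjusted p 0.466), or -0.80 without MCT2 CO replicate 3. *Fbn1*, encoding the microfibril protein fibrillin-1 (chromosome 2, 125300594 to 125507993, minus strand), had 36.3, 39.0 and 64.6 CPM in MCT2 CO and 28.6, 30.3 and 35.8 CPM in MCT2 KO, a log2 fold change of -0.56 (SE 0.22, edgeR adjusted p 0.499) without overlap of the groups, and of -0.25 without MCT2 CO replicate 3.

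*Postn*, encoding periostin, a matrix protein of activated fibroblasts, followed *Col1a1* sample by sample, with 24.8, 25 and 68.8 CPM in MCT2 CO and 17.2, 26.8 and 19.3 CPM in MCT2 KO. Its log2 fold change of -0.90 (SE 0.40, edgeR adjusted p 0.540) became -0.23 without MCT2 CO replicate 3. Of the fibroblast surface genes, *Pdgfra* (chromosome 5, 75152292 to 75198215, plus strand), the PDGF receptor of fibroblasts, was abundant, with 352, 374 and 483 CPM in MCT2 CO and 352, 438 and 373.5 CPM in MCT2 KO, and its log2 fold change was -0.06 (SE 0.14, edgeR adjusted p 0.923). This was 0.09 without MCT2 CO replicate 3 and -0.15 without MCT2 KO replicate 2. *Pdgfrb*, the receptor of mural cells and fibroblasts, had 29.8, 37.1 and 60.4 CPM in MCT2 CO and 29.2, 29.8 and 28.7 CPM in MCT2 KO, a log2 fold change of -0.54 (SE 0.23, edgeR adjusted p 0.533), or -0.19 without MCT2 CO replicate 3. *Fap* stayed between 4.08 and 6.34 CPM, and *Thy1* between 8.47 and 26.6 CPM, with its highest level in MCT2 KO replicate 3.

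The enzymes that modify, fold and crosslink collagen were looked at as the other genes of the pathway. Of 25 tested, 0 were called by edgeR, 9 had a log2 fold change above 0 and 16 below (background 49.9% below), and the median was -0.02. At an unadjusted p under 0.05, 1 was higher (background 3.77%) and 3 were lower (background 5.6%). *Serpinh1*, the collagen chaperone HSP47, had 282, 379 and 471 CPM in MCT2 CO and 244, 276 and 259 CPM in MCT2 KO, a log2 fold change of -0.54 (SE 0.17, edgeR adjusted p 0.436) with no overlap, or -0.35 without MCT2 CO replicate 3. *Plod1*, a lysyl hydroxylase, was on the other side, with 103.5, 109.9 and 110.2 CPM in MCT2 CO and 147.5, 139 and 141 CPM in MCT2 KO. Its log2 fold change was 0.40 (SE 0.07, edgeR adjusted p 0.370), short of the fold change minimum. DESeq2 on all genes gave 0.41 at an adjusted p of 0.00475, also short of that minimum. Of the 10 collagen receptors and uptake genes tested, 0 were called. The uptake receptor *Mrc2* had 145 to 207 CPM and a log2 fold change of -0.01 (SE 0.15), which was 0.04 without MCT2 CO replicate 3 and -0.17 without MCT2 KO replicate 2. The integrin *Itga10* had the smallest p, with a log2 fold change of -0.85 (SE 0.36, edgeR adjusted p 0.533), or -0.52 without MCT2 CO replicate 3 and -0.54 without MCT2 KO replicate 2. Its counts are uncertain, since 35.5% of its exon bases lie inside another gene's span.

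Markers of the cells that such a preparation could hold were set beside the matrix genes. Fibroblast markers outside the set summed to 962, 1002 and 1062 CPM in MCT2 CO replicates 1 to 3 and 1010, 1153 and 1087 CPM in MCT2 KO replicates 1 to 3, and this sum was highest in MCT2 KO replicate 2. It was carried by *Prrx1* (294 to 358 CPM), *Gsn* (342 to 451 CPM) and *Pdpn* (157 to 245 CPM), and *Tcf21* was at 0 in all 6 samples. The less abundant genes of the list showed another order of the samples than the sum. Of the 10 tested, 7 were highest in MCT2 CO replicate 3 (background 24.9%). The log2 fold change was below 0 for 7 (background 49.9%). Its median over the 10 was -0.48, or -0.09 without that replicate. At an unadjusted p under 0.05, 3 were lower (background 5.6%) and 1 was higher (background 3.77%). *Twist1*, a mesenchymal transcription factor, had a log2 fold change of -0.48 (SE 0.09, edgeR adjusted p 0.370), *Pi16* of -0.86 (SE 0.22, edgeR adjusted p 0.390) and *Mfap4* of -1.17 (SE 0.43, edgeR adjusted p 0.491), the last being -0.63 without MCT2 CO replicate 3. The abundant genes that carried the sum were above 0. *Pdpn*, the 1 higher gene, had 0.32 (SE 0.12, edgeR adjusted p 0.503), or 0.19 without MCT2 KO replicate 2. For *Gsn* it was 0.21 (SE 0.10, edgeR adjusted p 0.551). *Prrx1* had 0.06 (SE 0.10, edgeR adjusted p 0.880), or 0.02 without MCT2 CO replicate 3. Mural markers summed to 38.7 to 45.5 CPM, with *Acta2* at 1.33 to 3.94 CPM, and endothelial markers to 85.6 to 138 CPM.

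The order of the samples was different for the myeloid markers. Their sum was 6804, 5960 and 5183 CPM in MCT2 CO replicates 1 to 3 and 9590, 6072 and 6722 CPM in MCT2 KO replicates 1 to 3. It was lowest in MCT2 CO replicate 3, and the groups overlapped. Of the 11 markers tested, 10 had a log2 fold change above 0, against 6753 of all 13485 genes, though 0 were called by edgeR. Their part in the matrix result, like that of the other cell types, was not tested. Of the lymphoid lists, B cell markers summed to 23.0 CPM in MCT2 KO replicate 2 and 77.3 to 108 CPM in the other 5 samples, and T cell markers to 6.97 CPM and 18.7 to 47.0 CPM. Neutrophil markers summed to 67.3 to 176 CPM. DESeq2 on all genes called 5 of the 8 higher, against 0.178% of all genes, and edgeR called 0 of the 7 it tested. Epithelial markers summed to 14.2 to 33.7 CPM and skeletal muscle markers to 7.35 to 12.6 CPM.

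**Figure D5:**
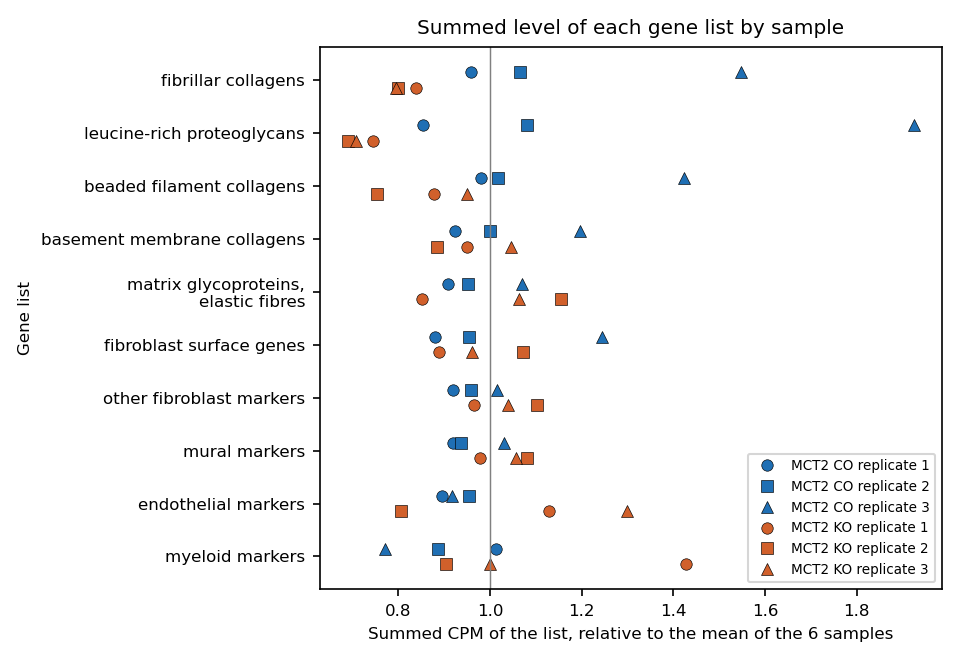
Summed CPM of each gene list in each sample, relative to the mean of the 6 samples. Fibrillar collagens and proteoglycans have MCT2 CO replicate 3 at the right and the 3 MCT2 KO samples at the left, whereas the sum of the other fibroblast markers, carried by *Prrx1*, *Gsn* and *Pdpn*, lies between 962 and 1153 CPM and the myeloid markers have MCT2 CO replicate 3 at the left.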

How the data were processed

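Poly-A RNA of CD11b+ cells from 6 tumors had been sequenced with a stranded kit on an Illumina HiSeq. Per the labels and methods, the authors used FastQC 0.12.0 and MultiQC 1.28 for quality, STAR 2.7.11b for alignment to GRCm38, and deposited raw counts per gene from featureCounts 2.1.1, unnormalized and unpooled. The annotation, feature type and strand setting are not given in the sources used here. Table lengths equal whole gene spans, and only 2.41% of starts match GENCODE M21, so positions come from M21 by identifier. Where genes overlap, reads may be lost or shared, which concerns 3 members with over 5% of exon bases in another gene.

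Genes were filtered by filterByExpr (minimum count 10, minimum total count 15), normalized by TMM and compared by edgeR 4.0.16 (glmQLFit, glmQLFTest; R 4.3.3), with Benjamini-Hochberg adjustment over the 13485 genes kept. Calls needed an adjusted p up to 0.05 with a log2 fold change of 0.58 or more in either direction. CPM values are TMM-normalized. P-values measure the spread between these 6 samples. The procedure was tested on simulated data. Principal components used the 500 most variable genes.

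The members and gene lists were chosen with earlier results of these data known, so no list was tested. Full values are given for the 12 members with the highest mean CPM, the 10 with the smallest p and those called by DESeq2 (1.42.0); other members named with values were chosen after their values were seen. Alternatives were DESeq2, limma-voom (limma 3.58.1), other normalizations, filters and thresholds, a replicate block and each mouse left out. Same-numbered samples of the groups did not deviate together (correlations 0.26, -0.26 and -0.17), so the numbers were not used as pairs. No pair of replicates was alike enough to be the same library deposited again.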

Additional observations from a re-analysis of the deposited data

How the results depend on the processing

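Of the 20 members given in full, 14 kept the sign of the log2 fold change under every alternative run on them, and the median over members stayed between -0.32 and -0.09. The number of members called moved from 0 to 2 (DESeq2 on the filtered genes) and 3 (DESeq2 on all genes), and under DESeq2 with each mouse left out, an alternative chosen after seeing the data, it ranged from 0 to 5. It was 0 without MCT2 CO replicate 3, MCT2 KO replicate 2 or MCT2 KO replicate 3. Over all genes, 79 and 83 were called by DESeq2 on filtered and all genes, 2 by edgeR without a filter, and 10 by edgeR without both libraries that stood apart; with each mouse left out, edgeR called 0 to 2, and DESeq2 called 105, 76 and 35 without MCT2 CO replicates 1 to 3 and 135, 69 and 41 without MCT2 KO replicates 1 to 3. *Slc16a7* passed under DESeq2, at -1.04 on both gene sets (adjusted p 0.00952 and 0.00908). With each mouse left out, 7 members (without MCT2 CO replicate 3) to 21 members (without MCT2 CO replicate 1) reached an unadjusted p under 0.05 by edgeR. The share over all genes was not computed for the fit with 21, so that count has no background beside it. Fewer members passed the stricter filter (5 CPM in 3 samples), and 7 of them were above 0 and 27 below, against 15 and 36 in the main test.

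The sign turned for 6 members, all close to 0. Without both libraries that stood apart, *Col4a1* was at 0.056 and *Col4a2* at 0.052. With each mouse left out, *Col4a1* ranged from -0.20 to -0.013, *Col4a2* from -0.22 to 8.78e-05, *Fn1* from -0.20 to 0.082, *Pdgfra* from -0.15 to 0.094, *Thbs1* from -0.10 to 0.21 and *Thbs2* from -0.19 to 0.21. With library totals, *Thbs1* was at -0.011 and *Thbs2* at -0.015, under the stricter filter *Thbs1* was at -0.00078, and with limma-voom *Thbs2* was at -0.017. The cause was not tested. With the replicate block, which uses numbers that do not pair the mice, edgeR called 0 members and 0 genes. At an unadjusted p under 0.05 there were 13 members, and the share over all genes was not computed for this fit. The median was -0.22, *Slc16a7* was at -1.06 and *Thbs2* at -0.024. The alternative that leaves out a symbol taken by its letters alone was not run, since no such symbol was among the members. With 3 mice a group, and 36 of the 51 tested members highest in MCT2 CO replicate 3, the data limit what can be said of single genes, and members under about 1 CPM rest on few counts.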

Other observations

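As a description over the 6 samples, with no test, the genes outside the set whose log2 CPM was most like that of *Col1a1* were *Spry1*, *Abcd3*, *Sertad4*, *Ctnnal1*, *Msrb3*, *F3*, *Glis3*, *Ebpl*, *Dlx2* and *Cxcl12*. *Spry1*, an inhibitor of growth factor receptor signaling, had 5.74, 5.85 and 16.1 CPM in MCT2 CO replicates 1 to 3 and 4.49, 6.63 and 4.66 CPM in MCT2 KO replicates 1 to 3, so that it too was highest in MCT2 CO replicate 3.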
